A study of Mus musculus with 6 samples.

Results

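The genes described here are 10 that set how much lipid a liver cell takes in, coats and releases: Cd36, the perilipins Plin2, Plin4 and Plin5, the CIDE genes Cidea, Cideb and Cidec, the lipase gene Pnpla2 and its inhibitors G0s2 and Hilpda. They were taken by name from a fixed list, and all 10 were among the 27179 genes counted in each library. RNA-seq counts were obtained from livers of C57BL/6 mice, 3 wild type and 3 Mettl3-deficient. Mettl3 is the enzyme that places N6-methyladenosine on RNA. The sources used here give neither the age and sex of the animals nor how, or in which cells, Mettl3 was made deficient. Nothing in the labels ties each library to a separate animal, so the p-values cover the spread among these libraries, which may in part be technical.

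Hepatocytes store triglyceride in lipid droplets, which bud from the endoplasmic reticulum and carry a coat of perilipins. CIDE proteins bring droplets together and pass lipid between them, or, in the case of Cideb, help load lipid onto secreted lipoproteins. Adipose triglyceride lipase, the product of Pnpla2, starts the breakdown of the stored fat, and G0s2 and Hilpda bind and inhibit it. CD36 is a membrane receptor that helps long-chain fatty acids enter the cell and is low in the healthy mouse liver, while Cidec and Cidea are best known from fat tissue and rise in fatty liver.

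The libraries held 31960205 to 36025772 counts. Mettl3 stood at 13.4, 14.3 and 12.1 CPM (the count scaled to library size, with TMM factors for library composition) in the wild-type libraries and at 5.96, 6.60 and 4.94 CPM in the Mettl3-deficient libraries. Wild type replicate 1 stood apart: across tested genes its log2 CPM correlated at 0.955 and 0.951 with the other wild-type libraries, which correlated with each other at 0.991. It was also the wild-type library with Y-linked transcripts (6508 counts, against 0 in replicates 2 and 3), as were Mettl3-deficient replicates 1 and 2 (4747 and 5031 counts, against 0 in replicate 3). Several results below turn on this library, and they are given with and without it. Without it no wild-type library with Y-linked transcripts is left, so in those fits genotype is partly confounded with Y-linked status.

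The regions before the transcript starts of the 3 genes that passed the test, Cd36, Cidec and Cideb, and of Plin2, the most abundant of the genes per kb of exon, are shown so that the sequence behind the values can be read. Each is the 250 bases before an annotated RefSeq start (GRCm38.p6), 5′ to 3′ on the strand of the gene, which is the minus strand for all 4: chr5:17835897-17836146 for Cd36, chr4:86670060-86670309 for Plin2, chr6:113435761-113436010 for the upstream start of Cidec and chr14:55758425-55758674 for Cideb. Capitals mark the nuclear receptor half-site AGGTCA and the CCAAT box, on either strand.
Cd36: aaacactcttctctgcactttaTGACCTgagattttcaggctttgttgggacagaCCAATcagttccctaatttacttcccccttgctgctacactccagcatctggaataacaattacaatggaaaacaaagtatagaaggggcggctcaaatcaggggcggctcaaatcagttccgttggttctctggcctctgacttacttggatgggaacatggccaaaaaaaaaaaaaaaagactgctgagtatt
Plin2: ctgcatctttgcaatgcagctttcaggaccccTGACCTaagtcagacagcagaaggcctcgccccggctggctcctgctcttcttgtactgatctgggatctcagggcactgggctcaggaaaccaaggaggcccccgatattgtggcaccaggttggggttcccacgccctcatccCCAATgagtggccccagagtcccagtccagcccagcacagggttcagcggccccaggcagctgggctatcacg
Cidec: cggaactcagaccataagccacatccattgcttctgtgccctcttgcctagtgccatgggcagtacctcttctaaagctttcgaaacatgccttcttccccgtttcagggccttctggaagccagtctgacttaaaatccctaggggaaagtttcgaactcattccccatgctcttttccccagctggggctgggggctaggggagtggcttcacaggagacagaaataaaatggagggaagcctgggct
Cideb: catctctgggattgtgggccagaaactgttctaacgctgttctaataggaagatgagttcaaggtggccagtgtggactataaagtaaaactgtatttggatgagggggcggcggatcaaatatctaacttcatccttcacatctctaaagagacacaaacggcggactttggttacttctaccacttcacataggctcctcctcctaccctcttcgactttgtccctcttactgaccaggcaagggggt

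Promoter windows of 9 of the 10 genes were used, 12 in all. Windows on chromosome 18, where Cidea lies, were left out for these genes, so Cidea was not searched. The half-site AGGTCA, part of the element that PPAR receptors bind, was present on either strand before starts of 3 genes, Cd36, Plin2 and Plin5, and 14.0% of all 32851 windows of this length held it. In Cd36 it lay 228 to 223 bases before the start used, at 17835896. That start lies inside the gene, which extends upstream to 17888959 on the minus strand. A direct repeat of 2 such half-sites 1 base apart was in none of these windows and in 0.0335% of all windows. CCAAT was found in 4 genes, Cd36, Plin2, Plin4 and Plin5 (33.8% of all windows). The hypoxia response core ACGTG was found in Hilpda alone among the 9 genes, 43 to 39 bases before its downstream start (16.6% of all windows), and the E-box CACGTG, which contains that core, in none (6.02%). A gene was counted if any of its windows held the motif, whereas the percentages are of single windows, so the 2 are not like for like. These matches are letters in a window and not measured binding sites.

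Transcripts of the fatty acid receptor Cd36 showed the largest fold change of the 8 tested genes. Cd36 (Entrez 12491, chromosome 5, 17781690 to 17888959, GRCm38) stood at 20.5, 21.1 and 21.7 CPM in the wild-type livers and at 179.7, 183.5 and 223.6 CPM in the Mettl3-deficient livers. The wild-type values lay within a narrow band and every Mettl3-deficient library was far above it. Cd36 rose 9.27-fold, a log2 fold change of 3.21 ± 0.17 (SE, n = 3 per group; edgeR adjusted p = 0.000307). Leaving out any 1 of the 6 libraries kept the call, with log2 fold changes between 3.11 and 3.27, and its Mettl3-deficient to wild-type ratio was 8.85 among the libraries with Y-linked transcripts and 10.5 among those without. Per kb of exon, Cd36 moved from the fifth level among the 10 genes in wild type (5.87 ± 0.158 CPM per kb, SD) to the second in Mettl3-deficient livers (54.5 ± 6.78 CPM per kb).

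**Figure D1:**
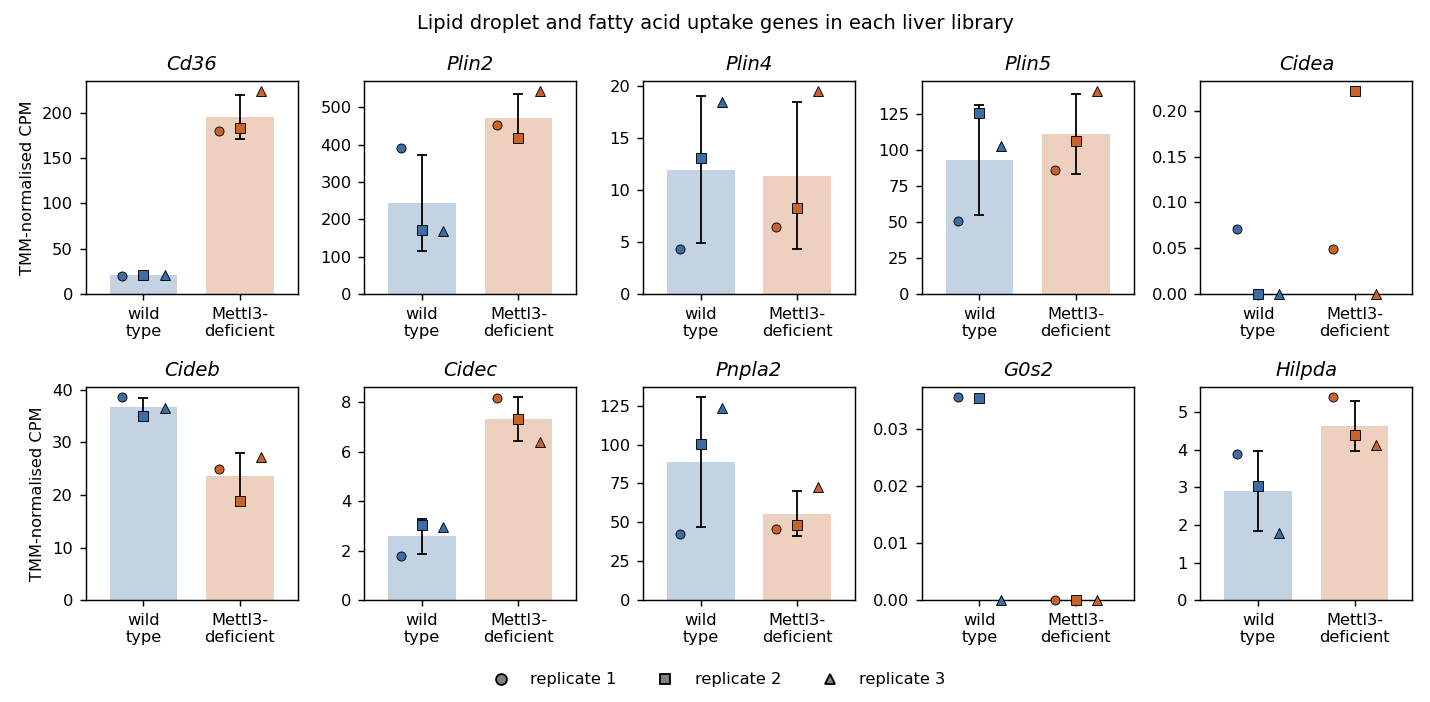
TMM-normalised CPM (y axis, linear, own scale in each panel) of the 10 genes in wild-type (blue) and Mettl3-deficient (orange) livers; bars are means, error bars SD (n = 3), and points single libraries, with no bar for Cidea and G0s2, which had at most 10 counts in any library. Cd36 separates the groups widely, from 20.5 to 21.7 CPM against 179.7 to 223.6 CPM, while the wild-type points of Plin2 and Pnpla2 are split by replicate 1.

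Among the droplet coat genes, Plin2 (Entrez 11520, chromosome 4, 86626910 to 86670217) encodes the perilipin that coats most hepatocyte droplets. It stood at 392, 172 and 169 CPM in wild type and at 453, 418 and 544 CPM in Mettl3-deficient livers. The groups did not overlap, but wild type replicate 1 lay close to the lowest Mettl3-deficient library. The log2 fold change was 0.95 ± 0.36 (SE) and was not called (edgeR adjusted p = 0.0903). Without wild type replicate 1 it was 1.47 ± 0.22 and was called (edgeR adjusted p = 0.00838), and DESeq2 called it on all 6 libraries (0.94, DESeq2 adjusted p = 0.029). The fit without that replicate holds no wild-type library with Y-linked transcripts. With a covariate for the libraries with Y-linked transcripts, Plin2 was not called (0.91 ± 0.33, edgeR adjusted p = 0.0886). Among libraries with Y-linked transcripts the ratio of Plin2 was 1.11 (1 wild-type library against 2), and among those without it was 3.19 (2 against 1), with too few libraries for a test.

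Plin5 (Entrez 66968, chromosome 17, 56111597 to 56117606) encodes a perilipin of oxidative tissues that holds droplets near mitochondria. Its values were 50.9, 126 and 102 CPM in wild type and 86.3, 106 and 141 CPM in Mettl3-deficient livers, and the groups overlapped. The log2 fold change was 0.25 ± 0.33 (edgeR adjusted p = 0.603), -0.04 without wild type replicate 1 and 0.61 with a covariate for the Y-linked libraries (edgeR adjusted p = 0.0761). Plin4 (Entrez 57435, chromosome 17, 56100587 to 56109948), a perilipin mainly of fat and muscle, lies 1648 bases from Plin5 on the same strand. It stood at 4.37, 13.1 and 18.4 CPM in wild type and at 6.41, 8.24 and 19.5 CPM in Mettl3-deficient livers, so that both groups spanned nearly the same range. Its log2 fold change of -0.07 ± 0.59 (edgeR adjusted p = 0.94) turned to 0.40 with scaling by library size alone and to 0.52 with the Y-linked covariate, and it was not called in any fit.

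The perilipin transcripts were compared per kb of exon, with Plin3, a cytosolic perilipin that joins young droplets, taken from the list of droplet genes. Plin2 made up 73.7% of the summed level of Plin2, Plin3, Plin4 and Plin5 in wild type replicate 1, 40.6% in replicate 2 and 43.8% in replicate 3. Its share in the Mettl3-deficient libraries was 67.5%, 62.0% and 63.4%. Plin5 held 16.1%, 50.1% and 44.6% in the wild-type libraries and 21.7%, 26.5% and 27.6% in the Mettl3-deficient libraries. In both shares wild type replicate 1 lay outside the Mettl3-deficient range, on the side away from the other wild-type libraries. Plin3 itself rose from 41.7 ± 11.9 to 74.2 ± 4.05 CPM (SD; edgeR adjusted p = 0.026), a call lost without Mettl3-deficient replicate 1 or 2 or wild type replicate 2 or 3 (highest edgeR adjusted p = 0.0947). The adipocyte perilipin Plin1 had no counts in any library.

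**Figure D2:**
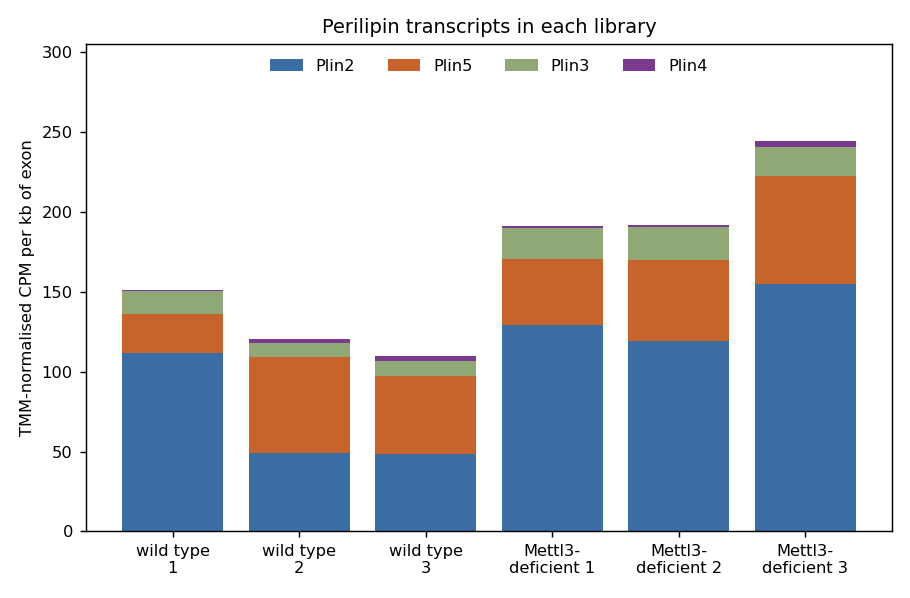
Summed level of the perilipin genes in each library, in TMM-normalised CPM per kb of exon (y axis from 0), stacked by gene. The Plin2 part is larger in wild type replicate 1 (112 CPM per kb) than in replicates 2 and 3 (48.8 and 48.2) and lies between 119 and 155 in the Mettl3-deficient libraries.

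The CIDE genes moved in opposite directions. Cidec (Entrez 14311, chromosome 6, 113424634 to 113435760), also known as Fsp27, encodes a protein that enlarges droplets by lipid transfer at their contact sites. It stood at 1.78, 3.04 and 2.96 CPM in wild type and at 8.19, 7.33 and 6.41 CPM in Mettl3-deficient livers. Each Mettl3-deficient library was above each wild-type library, and Cidec rose 2.82-fold (log2 fold change 1.495 ± 0.29, SE; edgeR adjusted p = 0.0117). The call was lost by a small margin without Mettl3-deficient replicate 1 (log2 fold change 1.41, edgeR adjusted p = 0.0511) and held without any 1 of the other 5 libraries.

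Cideb (Entrez 12684, chromosome 14, 55754052 to 55758424), the main CIDE gene of hepatocytes, stood at 38.5, 35.1 and 36.4 CPM in wild type and at 24.9, 18.8 and 27.3 CPM in Mettl3-deficient livers. The groups did not overlap, and Cideb fell 1.55-fold (log2 fold change -0.63 ± 0.17; edgeR adjusted p = 0.034). That call was near the threshold: it was lost without any 1 wild-type library or without Mettl3-deficient replicate 1 or 2 (highest edgeR adjusted p = 0.0939), and with scaling by library size alone the log2 fold change was -0.17 (edgeR adjusted p = 0.45). Of the 1488 exon bases annotated for Cideb, 1136 (76.3%) also lie in exons of Nop9 on the opposite strand, and the sources used here do not say whether counting used the strand, so reads of the 2 genes may not be told apart. Nop9 stood at 26.9, 26.3 and 25.0 CPM in wild type and at 31.5, 43.3 and 27.7 CPM in Mettl3-deficient livers, and its log2 fold change of 0.39 was not called (edgeR adjusted p = 0.164).

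Per kb of exon, the ratio of Cidec to Cideb was 0.037, 0.0695 and 0.065 in the wild-type libraries and 0.264, 0.313 and 0.188 in the Mettl3-deficient libraries. The ratio was thus higher in every Mettl3-deficient library, with Cideb remaining the more abundant of the pair in all 6. The size of this ratio depends on how the bases that Cideb shares with Nop9 were counted. Cidea (Entrez 12683, chromosome 18, 67343564 to 67367794), a CIDE gene of brown fat, had 2, 0 and 0 counts in wild type and 2, 10 and 0 counts in Mettl3-deficient livers. It did not pass the filter on low counts, and 10 of its 12 counts in Mettl3-deficient livers came from replicate 2, so no comparison was made.

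Neither of the 2 tested genes of fat breakdown among the 10 was called. Pnpla2 (Entrez 66853, chromosome 7, 141455188 to 141460743), which encodes adipose triglyceride lipase, stood at 42.7, 100.04 and 123 CPM in wild type and at 46.0, 48.4 and 72.5 CPM in Mettl3-deficient livers. Wild type replicate 1 lay below all Mettl3-deficient libraries while replicates 2 and 3 lay above them. The log2 fold change was -0.67 ± 0.38 and was not called (edgeR adjusted p = 0.221). It was -1.01 ± 0.23 without wild type replicate 1, where it was called (edgeR adjusted p = 0.0239), and -0.24 with the Y-linked covariate (edgeR adjusted p = 0.435). The ratio of Pnpla2 between the groups was 1.105 among libraries with Y-linked transcripts and 0.649 among those without.

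Hilpda (Entrez 69573, chromosome 6, 29272488 to 29275449), an inhibitor of the lipase that is induced by hypoxia and by fatty acids, stood at 3.87, 3.04 and 1.77 CPM in wild type and at 5.39, 4.38 and 4.13 CPM in Mettl3-deficient livers. All Mettl3-deficient libraries were above all wild-type libraries, by a narrow gap to wild type replicate 1. The log2 fold change of 0.68 ± 0.33 was not called (edgeR adjusted p = 0.17), nor was that of 0.94 without wild type replicate 1 (edgeR adjusted p = 0.0788). Hilpda was called with scaling by library size alone (1.15, edgeR adjusted p = 0.0331). G0s2 (Entrez 14373, chromosome 1, 193272160 to 193273188), the other inhibitor, had 1, 1 and 0 counts in wild type and 0 counts in all Mettl3-deficient libraries. A count of 0 over the Mettl3-deficient libraries allows up to 0.0283 CPM, for counting error only, and neither a fold change nor its ratio to Pnpla2 could be given. The annotation and strand setting of the counting are not known here, and whether they bear on this near absence was not tested.

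Of the 8 genes that passed the filter, 2 were called higher (Cd36 and Cidec), 1 lower (Cideb) and 5 were not called. Over all 14380 tested genes, 23.8% were called, 13.3% higher and 10.5% lower, and the median log2 fold change was 0.01, against 0.47 for the 8. In 4 of the 8 genes (Cd36, Plin2, Cidec and Hilpda) every Mettl3-deficient library exceeded every wild-type library, as in 23.9% of all tested genes, and in 1 (Cideb) the order was the reverse, as in 21.9%. Nothing is read from these shares about the group, which is too small for it. DESeq2 called 3 of the 8 higher, with Plin2 as the added gene (16.8% of all genes), and 1 lower (15% of all genes). Without wild type replicate 1, Plin2 joined the 2 higher genes and Pnpla2 took the place of Cideb as the 1 lower gene, with 13.1% and 10.7% of all genes called. That fit has no wild-type library with Y-linked transcripts, and with the Y-linked covariate on all 6 libraries neither Plin2 nor Pnpla2 was called. With library size as the sole scaling the median of all genes was 0.49. That fit called Cd36, Plin2, Cidec and Hilpda higher (33.4% of all genes) and none of the 8 lower (0 at an unadjusted edgeR p under 0.05 too; 4.14% of all genes).

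**Figure D3:**
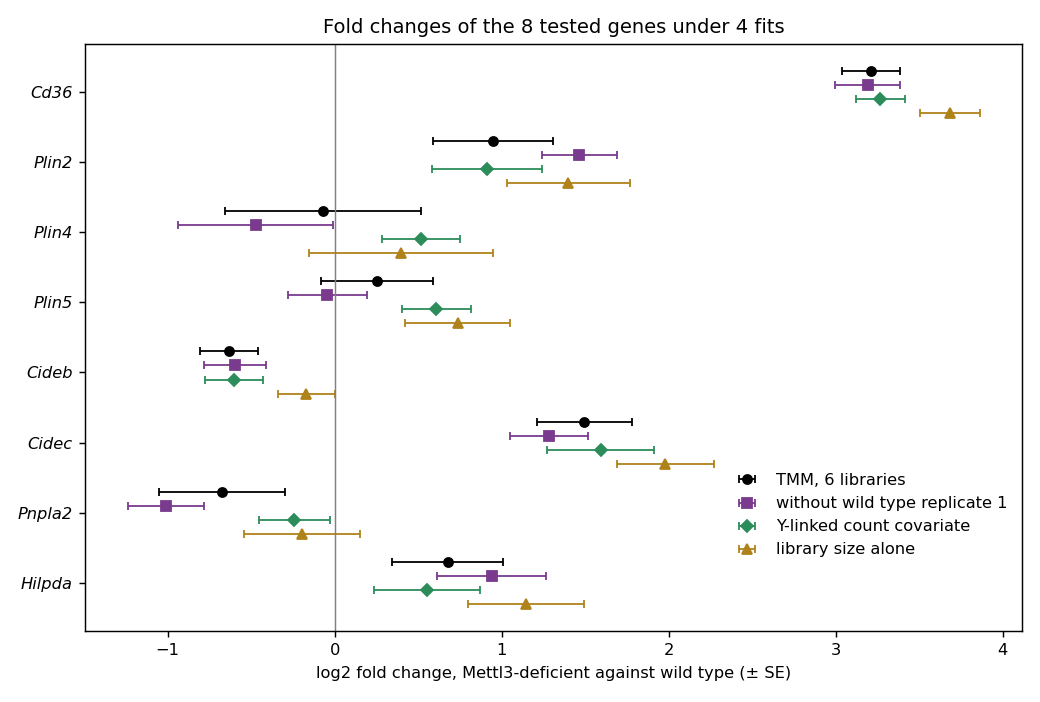
Log2 fold change of Mettl3-deficient against wild-type livers (x axis, ± SE) for the 8 tested genes under 4 fits: TMM scaling on all 6 libraries, the same without wild type replicate 1, with a covariate for Y-linked counts, and with scaling by library size alone. Cd36 lies between 3.19 and 3.68 in all 4, while Plin4 takes values on both sides of 0.

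Levels per kb of exon placed the genes in a similar order in both groups apart from Cd36. In wild type the order was Plin2 (69.6 ± 36.4 CPM per kb, SD), Plin5 (44.6 ± 18.3), Pnpla2 (29.4 ± 13.8), Cideb (24.7 ± 1.17), Cd36, Hilpda (2.63 ± 0.958), Plin4 (2.07 ± 1.23) and Cidec (1.40 ± 0.381). The SDs of Plin2, Plin5, Pnpla2 and Cideb overlap from neighbour to neighbour, as do those of Hilpda, Plin4 and Cidec, while Cd36 stands clear of its neighbours. In Mettl3-deficient livers Plin2 led at 134 ± 18.5 CPM per kb, Cd36 and Plin5 (53.1 ± 13.2) followed within their spread, then Pnpla2 (18.4 ± 4.85) and Cideb (15.9 ± 2.94), Hilpda (4.20 ± 0.603) and Cidec (3.94 ± 0.48), and Plin4 (1.97 ± 1.23). Exon lengths came from GENCODE M21 and need not be those used in counting. For Cideb, 76.3% of the exon bases also lie in exons of Nop9. Its level per kb and its place in the order depend on how shared bases were counted.

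The genes whose pattern over the 6 libraries was most like that of Cd36, by the root mean square difference of centred log2(CPM + 0.5), were Smpd3 (0.187), Pygb (0.203) and Inpp5j (0.219). Smpd3 encodes a neutral sphingomyelinase, Pygb the brain form of glycogen phosphorylase and Inpp5j an inositol polyphosphate phosphatase. Pygb stood at 7.25, 11.1 and 10.9 CPM in wild type and at 69.2, 87.5 and 101 CPM in Mettl3-deficient livers. Inpp5j had 0.071, 0 and 0 CPM in wild type and 5.44, 5.58 and 5.24 CPM in Mettl3-deficient livers, so its likeness to Cd36 depends on the added 0.5.

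Of 19 tested genes in the list of fatty acid uptake and binding, 3 rose, 6 fell and 10 were not called, where 13.3% of all tested genes rose and 10.5% fell. The median log2 fold change of the list was -0.33, against 0.01 for all genes, and the same background holds for the lists that follow. Fabp7, a fatty acid binding protein best known from the brain, rose from 1.14 ± 0.137 to 5.96 ± 1.94 CPM (SD; edgeR adjusted p = 0.00428), and Lpl, the lipoprotein lipase that frees fatty acids from circulating triglyceride, from 38.2 ± 18.9 to 143 ± 28.1 CPM (edgeR adjusted p = 0.0133). Fabp5 fell from 15.8 ± 10.2 to 3.11 ± 0.628 CPM and Slc27a5, a liver transport protein and bile acid ligase, fell from 1184 ± 272 to 394 ± 155 CPM (edgeR adjusted p = 0.0168 and 0.0212). Fabp7 kept its call whichever library was left out. The call of Lpl was lost without wild type replicate 2 (edgeR adjusted p = 0.0512), that of Fabp5 without Mettl3-deficient replicate 1 or 2 (highest 0.0666) and that of Slc27a5 without Mettl3-deficient replicate 1 or wild type replicate 2 or 3 (highest 0.0719).

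In droplet formation and coat, 2 of 20 tested genes rose and 3 fell, shares near those of all genes (13.3% and 10.5%). Spart (listed in RefSeq as Spg20), a droplet-bound protein that takes part in droplet turnover, rose from 43.1 ± 6.52 to 74.4 ± 6.69 CPM (edgeR adjusted p = 0.0143), and Plin3 was the other. Vps13c, a lipid transfer protein, Aup1, a droplet protein with a role in protein degradation, and Dgat2, which makes triglyceride at the droplet surface, fell 1.79-, 1.63- and 2.29-fold (edgeR adjusted p = 0.0266, 0.0279 and 0.0292). Spart lost its call without wild type replicate 3 (edgeR adjusted p = 0.0626). Vps13c, Aup1 and Dgat2 lost theirs without Mettl3-deficient replicate 1 or 2 or wild type replicate 2 or 3, and Aup1 also without Mettl3-deficient replicate 3 (highest 0.0922, 0.108 and 0.114). With library size alone 9 of the 20 rose and 0 fell (2 lower at an unadjusted edgeR p under 0.05). In that fit 33.4% of all genes rose and 4.14% fell, and the median of all genes was 0.49. DESeq2, with its own scaling, called 3 of the 20 higher and 4 lower, where it called 16.8% and 15% of all genes.

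In lipolysis and its control, 5 of 13 tested genes fell and none rose (0 higher by edgeR at an unadjusted p under 0.05, and 0 by DESeq2), where 10.5% of all genes fell and 13.3% rose. The list's median log2 fold change was -1.15, near the -1.06 of the hepatocyte markers described below. With library size alone 3 of the 13 rose and 4 fell. Ces1d, a carboxylesterase that hydrolyses stored triglyceride, fell from 1212 ± 467 to 177 ± 77.8 CPM (edgeR adjusted p = 0.00798) and kept its call whichever library was left out. Ces1f, which like Ces1d belongs to a cluster of similar genes whose reads the counting could split, and Pnpla3, a close relative of Pnpla2, fell 4.07- and 3.30-fold (edgeR adjusted p = 0.0342 and 0.0361). Both calls were lost without any 1 wild-type library or Mettl3-deficient replicate 1, that of Ces1f also without Mettl3-deficient replicate 3 and that of Pnpla3 without Mettl3-deficient replicate 2 (highest 0.0733 and 0.0948). Abhd5, the coactivator of the lipase, stood at 35.7 ± 4.93 CPM in wild type and 38.5 ± 5.08 CPM in Mettl3-deficient livers and was not called (edgeR adjusted p = 0.663).

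Transcription factors known to act on these genes were mostly lower where called. Of 18 tested, 1 rose and 8 fell, against 13.3% and 10.5% of all genes. Pparg, the receptor that drives Cd36 and Cidec in fat cells and in fatty liver, stood at 4.26, 5.16 and 5.99 CPM in wild type and at 12.3, 19.97 and 13.1 CPM in Mettl3-deficient livers (log2 fold change 1.56 ± 0.26; edgeR adjusted p = 0.00762). Its call held whichever library was left out. Ppara, the main PPAR of hepatocytes, stood at 168, 220 and 260 CPM and at 77.3, 47.9 and 151 CPM, with no overlap, and was not called (log2 fold change -1.23 ± 0.40; edgeR adjusted p = 0.0586). Mlxipl, Srebf1, Cebpa and Epas1, the last a hypoxia-inducible factor, fell 3.19-, 3.75-, 2.65- and 2.39-fold (edgeR adjusted p = 0.0057, 0.0133, 0.0159 and 0.0168). Mlxipl and Srebf1 kept their calls whichever library was left out, that of Cebpa was lost without Mettl3-deficient replicate 1 or wild type replicate 2 (highest 0.0681) and that of Epas1 without wild type replicate 2 or 3 (highest 0.0583). Whether any of these factors bears on the 10 genes was not tested.

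Of 17 tested PPARalpha targets outside the 10 genes, 6 rose and none fell (1 lower by edgeR at an unadjusted p under 0.05, and 1 by DESeq2), where 13.3% of all genes rose. The 4 with the smallest p were Acot2, Fgf21, Ehhadh and Vnn1, higher by 24.3-, 10.6-, 4.20- and 3.03-fold (edgeR adjusted p = 0.00105, 0.00732, 0.0075 and 0.0127), and all 4 kept their calls whichever library was left out. Reads of Acot2 and its near-identical neighbour Acot1 could be split by the counting. Of 12 hypoxia targets, 1 rose and 3 fell. Ndrg1 rose from 13.8 ± 9.52 to 65.1 ± 19.4 CPM (edgeR adjusted p = 0.0181, and lost without Mettl3-deficient replicate 2 or wild type replicate 2 or 3, highest 0.057). Vegfa, Pdk1 and Bnip3 fell 2.15-, 2.55- and 3.74-fold (edgeR adjusted p = 0.00708, 0.00744 and 0.0168), and of these Bnip3 lost its call without Mettl3-deficient replicate 1 or wild type replicate 2 or 3 (highest 0.0657).

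**Figure D4:**
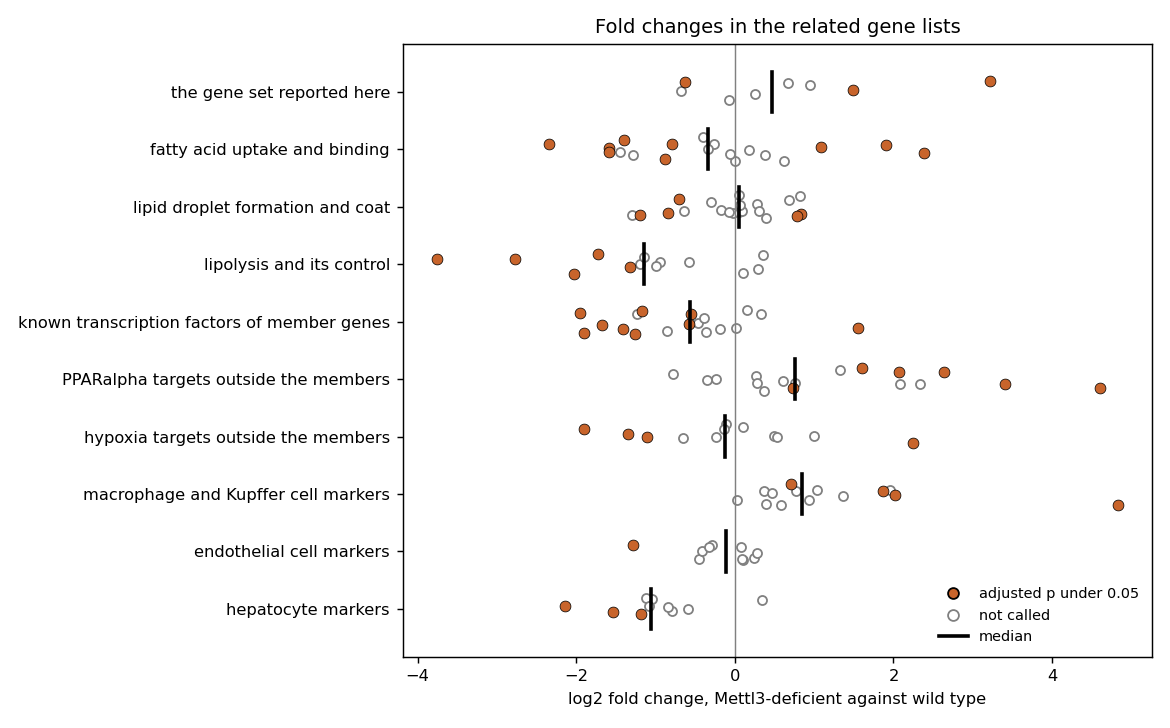
Log2 fold change (x axis) of each tested gene in the 10 genes reported and in 9 related lists, with called genes in orange, genes not called in white and the median as a bar. The lipolysis list has its median at -1.15 and 5 called genes below 0, and the PPARalpha targets have 6 called genes above 0. The hepatocyte markers have their median at -1.06 and 3 called genes below 0.

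Markers of other cell types that carry these transcripts were read beside the values, and in bulk tissue fewer cells of a type and less RNA per cell cannot be told apart. Of 8 adipocyte markers, Adipoq, Plin1, Lep, Retn and Ucp1 had no counts in any library, and the 8 summed to 22.8 to 28.3 CPM in wild type and 14.6 to 22.3 CPM in Mettl3-deficient livers. Cfd had at most 0.248 CPM in any library, so these sums are almost all Fabp4 and Lipe, which were not called. Of 14 macrophage and Kupffer cell markers, 4 rose (Gpnmb, Itgam, Lyz2 and Cd68), led by Gpnmb from 0.369 ± 0.138 to 10.7 ± 4.65 CPM (edgeR adjusted p = 0.00131). Gpnmb had 11, 14 and 6 counts in the wild-type libraries. The other 10 were not called, and among them Clec4f, Vsig4, Timd4, Marco and Cd5l overlapped between the groups. Lyz2 lost its call without Mettl3-deficient replicate 2 or wild type replicate 2 or 3 and Cd68 without Mettl3-deficient replicate 1 or 2 or wild type replicate 2 or 3 (highest edgeR adjusted p = 0.075 and 0.145). Cd68 was also not called with the Y-linked covariate (edgeR adjusted p = 0.109). The summed level of the 14 markers was 182, 466 and 534 CPM in wild type and 548, 889 and 518 CPM in Mettl3-deficient livers, so the groups overlapped. The part of macrophages in the values of the 10 genes was not tested.

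Endothelial markers, a further source of Cd36, summed to 224 to 327 CPM in wild type and 215 to 253 CPM in Mettl3-deficient livers, and of the 10 only Lyve1 was called, as lower (edgeR adjusted p = 0.0207, lost without Mettl3-deficient replicate 1 or wild type replicate 3, highest 0.0769). Platelet markers summed to 5.11 to 8.20 CPM and 5.402 to 6.48 CPM, and skeletal muscle markers to at most 0.213 CPM in any library. Stellate cell markers summed to 424 to 446 CPM and 343 to 660 CPM. None of the 9 stellate and 3 tested platelet markers was called by edgeR on all 6 libraries with TMM scaling (0 of either at an unadjusted p under 0.05, and 0 called by DESeq2). Of the stellate markers, edgeR called 2 higher without wild type replicate 1, 2 with the Y-linked covariate and 1 with library size alone. Of 8 cholangiocyte markers, Sox9 and Cldn7 rose (edgeR adjusted p = 0.032 and 0.034), calls that Sox9 held only without wild type replicate 1, and Cldn7 only without Mettl3-deficient replicate 2 or wild type replicate 2, among the fits on 5 libraries (highest 0.105 and 0.113). The 10 hepatocyte markers summed to 152910 to 188730 CPM in wild type and 56066 to 84333 CPM in Mettl3-deficient livers, and 3 of them fell: Serpina1a (one of a family of near-identical genes), Fgb and Alb (edgeR adjusted p = 0.00544, 0.017 and 0.0172). The calls of Fgb and Alb were lost without Mettl3-deficient replicate 1 or wild type replicate 2 or 3 (highest edgeR adjusted p = 0.0756). The median log2 fold change of the 10 was -1.06. In 8 of them every Mettl3-deficient library was below every wild-type library, as in 21.9% of all tested genes.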

How the data were processed

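Liver RNA was extracted with TRIzol, depleted of ribosomal RNA and made into directional libraries, per the labels' protocols. The authors deposited unnormalised gene counts keyed by Entrez identifier, made with HISAT2, featureCounts and mouse build mm10, per the submitters' processing notes. Versions, annotation and strand setting are not stated there. RefSeq symbols (GRCm38.p6, the same build) matched 25275 of 27179 identifiers. Replicates were not alike within sampling noise (chi-square per degree of freedom at least 16.7 within a group).

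Differences came from the two-sided robust quasi-likelihood test of edgeR 4.0.16 (R 4.3.3), with group as the design and TMM factors. filterByExpr (minimum count 10, minimum total 15) left 14380 genes. Called genes are those whose Benjamini-Hochberg adjusted p, over these 14380, was under 0.05. Each standard error is the absolute log2 fold change over the square root of F. The fit was checked on simulated data. Levels are TMM-normalised CPM, and a positive fold change means higher in Mettl3-deficient livers. Alternatives were RLE and upper-quartile factors, library size alone, DESeq2 1.42.0, limma-voom (limma 3.58.1), 2 other filters, the replicate block, removal of the 20 most abundant genes, a covariate for libraries with more than 100 Y-linked counts, and each library left out in turn. Values within the libraries with and without Y-linked counts were added after seeing the data.

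The genes, the related lists (fatty acid uptake, droplet formation, lipolysis, transcription factors, PPARalpha and hypoxia targets, and markers of adipocytes, macrophages, endothelial, stellate, cholangiocyte, muscle, platelet and hepatocyte cells) and the tests were chosen with earlier results of these data known. Named from each list are up to 4 called genes with the smallest p, and for Cd36 the 3 genes nearest in pattern, leaving out unnamed gene models. Ppara, Epas1, Plin1, Plin3 and Nop9 are named for their role or position, and Abhd5, Dgat2 and the markers were named after their values were seen. One gene that this rule names is not reported here. No set was tested. Sequences are RefSeq's.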

Additional observations from a re-analysis of the deposited data

How the results depend on the processing

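Cd36 was called under all 10 other settings and in all 6 fits that left out 1 library, with log2 fold changes from 3.11 to 3.68. Cidec was called under the 10 other settings (1.48 to 1.98) and in 5 of the 6 fits without 1 library (1.28 to 1.63). Cideb was called under 9 of the 10 and in 1 of the 6 (-0.75 to -0.49). Plin4 changed sign with library size alone (0.40) and the Y-linked covariate (0.52), and ran from -0.71 to 0.38 when 1 library was left out; Plin5 ran from -0.04 (-0.0433, without wild type replicate 1) to 0.53. All genes called numbered 3420, and 5405 with library size alone and 1382 to 3514 when 1 library was left out. Of the 10 genes, those called higher numbered 2, and 4 with library size alone and 1 to 3 when 1 library was left out; those called lower numbered 1, and 0 with library size alone and 0 to 1 when 1 library was left out (1 at an unadjusted edgeR p under 0.05 in the fits with none called and a library left out).

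With library size alone, the genes that rose in the lists of fatty acid uptake, droplet formation, lipolysis, transcription factors, PPARalpha targets and hypoxia targets numbered 5, 9, 3, 2, 10 and 3, against 3, 2, 0, 1, 6 and 1 with TMM, and those that fell 2, 0, 4, 5, 0 and 3, against 6, 3, 5, 8, 0 and 3. When 1 library was left out, those that fell ran from 0 to 5, 0 to 4, 2 to 7, 2 to 8, 0 to 1 and 2 to 3, and those that rose from 1 to 2, 0 to 2, 0 to 0, 1 to 1, 5 to 7 and 0 to 2. Macrophage markers that rose numbered 2 to 4 when 1 library was left out and 7 with library size alone, and hepatocyte markers that fell 1 to 4 when 1 library was left out and 8 with DESeq2.

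Same-numbered libraries correlated at 0.0817, -0.0127 and 0.0441 in their deviations from the group means, so the numbers were not taken to pair animals. With the replicate block 2683 genes were called, Cd36, Cidec and Cideb among them, and no other gene of the 10 was called. Cidea, with 2 counts summed over the wild-type and 12 over the Mettl3-deficient libraries, and G0s2, with 2 and 0, had too few counts for a test.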

Other observations

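Some ratios between the 10 genes, given without a test, set wild type replicate 1 beside the Mettl3-deficient libraries rather than beside the other wild-type libraries. The ratios of Plin2 to Pnpla2 and of Plin5 to Plin2 were chosen after their values were seen. The ratio of Plin2 to Pnpla2 per kb of exon was 7.89 in wild type replicate 1, 1.48 and 1.18 in wild type replicates 2 and 3, and 8.46, 7.43 and 6.45 in Mettl3-deficient livers. For Plin5 to Plin2 the values were 0.218, 1.23 and 1.02 in wild type and 0.321, 0.426 and 0.435 in Mettl3-deficient livers. The ratio of Plin4 to Plin2 was 0.00678, 0.0464 and 0.0661 in wild type and 0.0086, 0.012 and 0.0218 in Mettl3-deficient livers. Cd36 and the ratio of Cidec to Cideb did not follow this: in both, wild type replicate 1 lay on the side of the other wild-type libraries.

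The same library was low in several genes outside the 10, also picked after their values were seen. Cyp4a14, a fatty acid hydroxylase and PPARalpha target, stood at 9.45 CPM in wild type replicate 1, 561 and 698 CPM in the other wild-type libraries and 1218 to 3472 CPM in Mettl3-deficient livers. Lpin1, which makes the diglyceride used for triglyceride synthesis, stood at 39.5 CPM in wild type replicate 1, against 302 and 587 CPM in replicates 2 and 3 and 14.6 to 37.4 CPM in Mettl3-deficient livers. Angptl4, an inhibitor of lipoprotein lipase induced by fatty acids, stood at 24.4, 80.7 and 136 CPM in wild type and 43.4, 41.9 and 76.2 CPM in Mettl3-deficient livers.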
